A study of Mus musculus with 2 samples.

Results

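Proteasome gene RNA was measured in 1 double-knockout (dKO) and 1 wild-type (WT) library of mouse muscle stem cells (MuSCs), which reside in skeletal muscle, express Pax7 and repair the fibres after injury. The 39 genes encode the subunits of the proteasome core, its immunoproteasome variants, its regulatory cap, its alternative activators and 1 maturation factor. They were taken by gene symbol, and all 39 were found among the 24532 gene IDs of the deposited count table. By role they were 7 alpha ring subunits, 7 constitutive beta ring subunits, 3 immunoproteasome subunits, 6 ATPase and 11 non-ATPase subunits of the cap, 4 activator subunits and Pomp.

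The dKO cells came from male mice that carried Pax7-CreER, a tamoxifen-inducible Cre recombinase driven from Pax7, together with Esr2-/-, the loss of estrogen receptor beta, and a Cre-deletable gene that is not reported here. The WT cells came from male mice labelled only as wild type. Both groups were on the C57BL/6 strain, both titles include an unexplained 6M, and the labels give the same tamoxifen treatment for both (20 mg/mL by mouth on 5 days from 3 months of age). Whether animals were pooled is not stated. The sort kept Vcam1-positive cells that lacked CD31, CD45 and Sca1, and RNA was taken without culture, so the levels are those of cells after enzymatic dissociation and sorting. The libraries held 43699831 reads in dKO and 36636680 reads in WT, and with 1 library each no difference below has a replicate check.

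The proteasome is the protease that degrades ubiquitin-tagged proteins of the cytosol and nucleus. Its core is a barrel of stacked rings, in which alpha subunits form the outer rings and the gate, and beta subunits form the inner rings and carry the active sites. A cap of ATPase and non-ATPase subunits binds the ubiquitin chain, unfolds the substrate and threads it into the core. In immune cells, and in other cells under interferon, the catalytic beta subunits are replaced by immunoproteasome variants that favour peptides for MHC class I. In skeletal muscle the pathway is best known for the protein breakdown of atrophy.

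Nearly every proteasome gene had more RNA in the dKO library, by small amounts. Of the 39 genes, 38 had a log2 ratio of dKO over WT above 0, and 0 were 2-fold apart in either direction. The background over all 14885 measured genes (at least 10 counts in the higher library) was 47.6% above 0 and 6.22% 2-fold apart. The median log2 ratio of the 39 genes was 0.32, from −0.01 for Psmb10 to 0.87 for Psmd11, beside a median of −0.02 for all measured genes. Summed over the 39 genes, reads made up 0.282% of the dKO library (exact binomial 95% interval 0.281 to 0.284) and 0.257% of the WT library (0.256 to 0.259). Those shares are of the unscaled library totals. On the scaled library sizes described in the next paragraph, the ratio of the summed CPM was 1.31 (1.30 to 1.32). These intervals, like all those below, cover counting error only.

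The size and, for some genes, the sign of these values depended on how the libraries were scaled and on abundance. CPM, counts per mega-read of library size, used sizes scaled by the trimmed mean of M values (TMM). Under library totals alone the median of all genes was −0.24, against −0.02 under TMM, and 27 of the 39 genes stayed above 0, with a median of 0.07. Relative to the all-gene median, the proteasome median stood 0.34 higher under TMM and 0.31 higher under library totals. Abundant genes were higher in the dKO library as a whole. Among 8 bins of genes by mean CPM, the median log2 ratio was −0.16 in the lowest, −0.21 in the next and 0.29 in the highest. Of the 39 genes, 21 fell in the second most abundant bin, where they had a median of 0.45 against 0.13 for all genes of the bin. The 6 genes in the most abundant bin had a median of 0.32, against 0.29 for all genes of that bin. After a cubic trend on abundance and transcript length was removed, the median of the 39 genes was 0.08 and 26 were above 0. The part that abundance plays in the shared difference was not tested further.

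**Figure D1:**
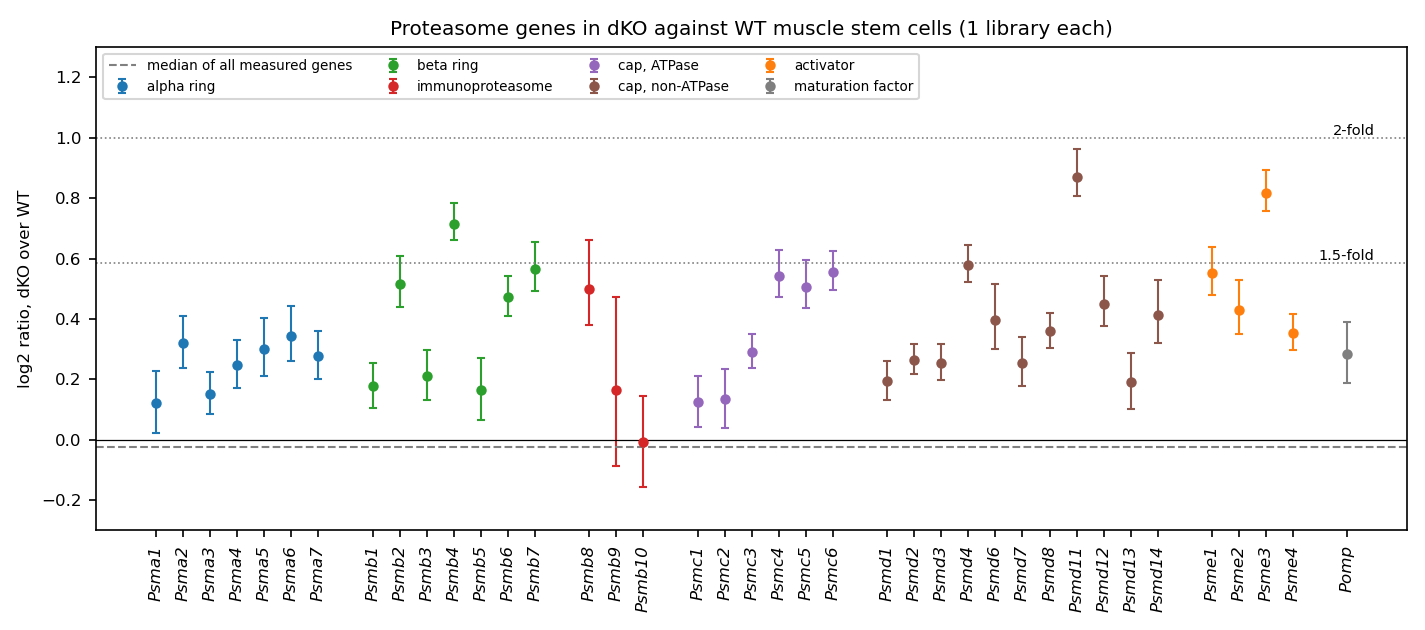
Log2 ratio of dKO over WT for each of the 39 genes, grouped by role. Points are log2 ratios of CPM + 1 under TMM scaling and bars are exact 95% counting intervals of the ratio without a pseudocount, for 1 library each. The dashed line marks the median of all measured genes (−0.02). Psmd11, Psme3 and Psmb4 lie above the 1.5-fold line, 0 genes reach the 2-fold line, and Psmb10 is the only point below 0; under library totals 12 points would lie below 0.

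**Figure D2:**
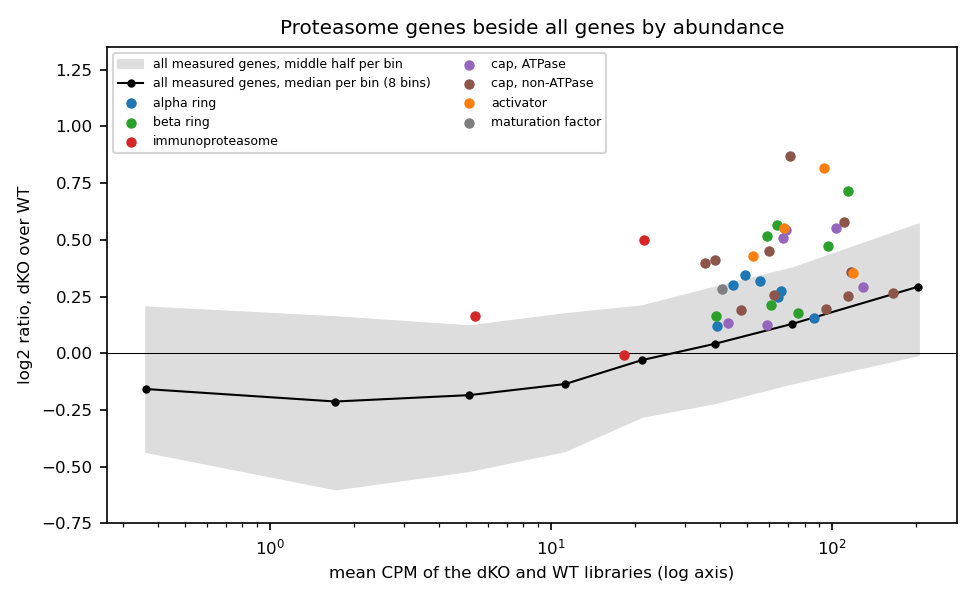
Log2 ratio of dKO over WT against mean CPM of the 2 libraries (log axis). The line joins the medians of all measured genes in 8 abundance bins (−0.16 in the lowest bin, −0.21 in the next and 0.29 in the highest). The band holds the middle 50% of each bin. Coloured points are the 39 proteasome genes, most of which lie above the line.

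The alpha ring, which opens and closes the entry to the core, was the most even group. Its 7 genes had log2 ratios between 0.12 (Psma1) and 0.35 (Psma6), with a median of 0.28. Psma1 had 1633 counts in dKO and 1497 in WT, a ratio of 1.09 (95% interval 1.02 to 1.17). Psma6 had 2204 counts in dKO and 1726 in WT, a ratio of 1.28 (1.20 to 1.36). The other 5 alpha genes, Psma2, Psma3, Psma4, Psma5 and Psma7, had ratios between 1.11 and 1.25, and all 7 intervals lay above 1. The direction was not stable for the whole ring, since 3 of the 7 were below 0 under library totals, 4 of 7 with the trend removed and Psma3 by its highest row alone.

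The constitutive beta ring ranged more widely, from 0.16 (Psmb5) to 0.71 (Psmb4), with a median of 0.47. Psmb4, a non-catalytic subunit, had 5676 counts in dKO and 3442 in WT, a ratio of 1.65 (1.58 to 1.72). Its log2 ratio of 0.71 was 0.46 by library totals. With the trend on abundance and length removed it was 0.30, at or above 76.1% of all measured genes. Psmb4 was also the most abundant of the 39 genes per length in both libraries, at 149 CPM per kilobase in dKO and 90.7 in WT. The other non-catalytic subunits were Psmb2 (ratio 1.44, 1.36 to 1.53), Psmb3 (1.16, 1.10 to 1.23) and Psmb1 (1.13, 1.08 to 1.19). Under library totals 3 of the 7 beta genes, Psmb1, Psmb3 and Psmb5, were below 0. The same 3 were below 0 with the trend removed, where the ring had a median of 0.09.

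The catalytic beta subunits did not differ between the libraries by the same factor. Psmb7, which carries the trypsin-like site, had 3066 counts in dKO and 2060 in WT, a ratio of 1.49 (1.41 to 1.57). Psmb6, which carries the caspase-like site, had 4502 counts in dKO and 3234 in WT, a ratio of 1.39 (1.33 to 1.46). Psmb5, which carries the chymotrypsin-like site, had 1640 counts in dKO and 1459 in WT, a ratio of 1.12 (1.05 to 1.21). The Psmb5 interval did not overlap those of Psmb6 and Psmb7, so these unequal ratios exceed the counting error of the 2 libraries. Whether they exceed the spread between animals cannot be told with 1 library each.

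The 3 immunoproteasome genes were the least abundant of the 39 in both libraries and the least uniform in direction. Psmb8, the counterpart of Psmb5 (chromosome 17, 34198195 to 34201454 on GRCm38), had 1015 counts in dKO and 707 in WT, a ratio of 1.44 (1.30 to 1.58). Psmb9, the counterpart of Psmb6 (chromosome 17, 34182030 to 34187330), had 230 counts in dKO and 201 in WT, a ratio of 1.14 whose interval (0.943 to 1.39) includes 1. Psmb10, the counterpart of Psmb7 (chromosome 8, 105935728 to 105938392), had 730 counts in dKO and 733 in WT, a ratio of 0.996 (0.897 to 1.10). Thus 1 of the 3 stood above its counting error, and the median log2 ratio of 0.16 became −0.05 under library totals.

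Each immunoproteasome gene was also set against the constitutive gene it replaces, a ratio within a library that no scaling of library size can move. Psmb8 stood at 44.1% of Psmb5 per kilobase in dKO (40.7 to 47.7) and at 34.5% in WT (31.5 to 37.8). Psmb9 stood at 6.57% of Psmb6 in dKO (5.73 to 7.50) and at 7.99% in WT (6.89 to 9.21). Psmb10 stood at 18.2% of Psmb7 in dKO (16.7 to 19.7) and at 27.1% in WT (24.9 to 29.6). The dKO to WT ratio of these shares was 1.28 for Psmb8 (1.13 to 1.44), 0.822 for Psmb9 (0.674 to 1.004) and 0.669 for Psmb10 (0.594 to 0.753). Relative to its constitutive partner, Psmb8 was therefore higher and Psmb10 lower in the dKO library, beyond counting error, and the Psmb9 interval included 1. Removal of the trend on abundance and length does move these comparisons. With it removed, log2 ratios were 0.41 for Psmb8 and −0.08 for Psmb5, and 0.18 for Psmb9 and 0.09 for Psmb6. They were −0.06 for Psmb10 and 0.25 for Psmb7. Psmb9 was then above its partner, while Psmb8 stayed above and Psmb10 below theirs. In either setting the immunoproteasome genes did not lie on 1 side as a set.

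**Figure D3:**
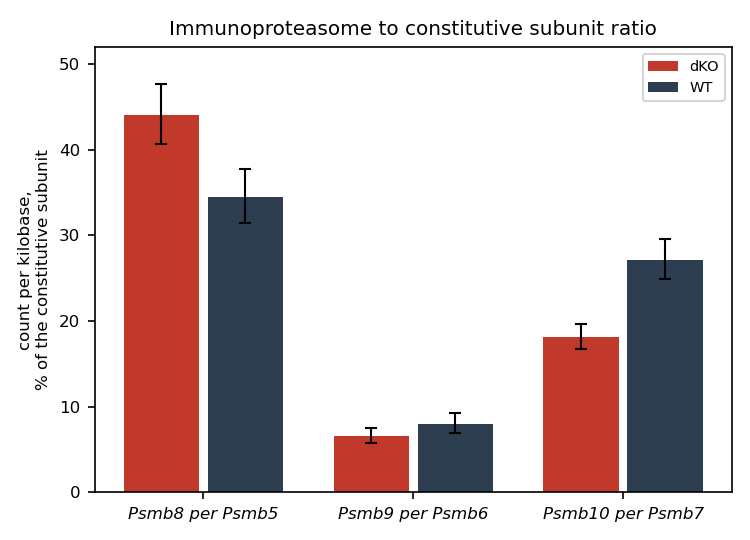
Count per kilobase of each immunoproteasome gene as a percentage of the constitutive gene it replaces, in the dKO and the WT library. Bars are the value of 1 library and error bars are exact 95% counting intervals. Psmb8 per Psmb5 is higher in dKO (44.1% against 34.5% in WT), and Psmb10 per Psmb7 is lower in dKO (18.2% against 27.1% in WT).

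Immune cells carry the immunoproteasome without stimulation, so the markers of cells that the sort was set to exclude are given beside these genes. Over all measured genes, 4.3% were at least 2-fold lower in dKO. All 12 immune markers were lower in dKO, 11 of them by at least 2-fold, with a summed level of 52.4 CPM in dKO and 209 CPM in WT. Ptprc, which encodes CD45, had 17 counts in dKO and 200 in WT. All 10 endothelial markers were lower, 8 of them by at least 2-fold, with a median log2 ratio of −1.47. Their sum was 261 CPM in dKO and 570 CPM in WT, and Pecam1, which encodes CD31, had 1673 counts in dKO and 4745 in WT. All 6 fibro-adipogenic markers were lower, 5 of them by at least 2-fold, with a median log2 ratio of −1.51. Their sum, weighted to the most abundant marker, was 607 CPM in dKO and 1104 CPM in WT. No marker on these lists had a count of 0 in either library. The 10 muscle stem cell markers were all present, 5 above and 5 below 0 (4 above and 6 below under library totals). With the trend on abundance and length removed, 3 were above and 7 below 0, with a median of −0.43 and 2 at least 2-fold lower. Pax7 had 12620 counts in dKO and 22335 in WT, and Vcam1 had 42383 in dKO and 23795 in WT. In such bulk samples, fewer cells of a type and less RNA per cell cannot be told apart. The part of other cell types in the immunoproteasome values was not tested.

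The regulatory cap had all 17 genes above 0, with a median of 0.36, and 13 of the 17 stayed above 0 under library totals. Among the 6 ATPases, which form the ring that unfolds substrates, 3 had larger ratios. These were Psmc6 (4944 counts in dKO, 3353 in WT; ratio 1.47, 1.41 to 1.54), Psmc4 (3262 in dKO, 2228 in WT; 1.46, 1.39 to 1.55) and Psmc5 (3162 in dKO, 2212 in WT; 1.43, 1.35 to 1.51). The other 3 were lower on this scale. Psmc3 had a ratio of 1.23 (1.18 to 1.27), Psmc2 of 1.10 (1.03 to 1.18) and Psmc1 of 1.09 (1.03 to 1.16). The intervals of Psmc4, Psmc5 and Psmc6 overlapped each other and none of the other 3. Under library totals Psmc1 and Psmc2 had log2 ratios of −0.12 and −0.11.

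Among the 11 non-ATPase subunits, Psmd11 stood apart. It encodes the lid subunit that bridges the cap and the core (chromosome 11, 80428615 to 80473248 on GRCm38). Psmd11 had 3682 counts in dKO and 1994 in WT, a ratio of 1.85 (1.75 to 1.95) and the highest of the 39 genes. Its log2 ratio of 0.87 was at or above that of 97.0% of all measured genes, and library totals gave 0.62. With the trend on abundance and length taken out it was 0.63, which was at or above 92.7% of all measured genes.

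The ubiquitin-binding and ubiquitin-removing subunits were higher by smaller amounts. Psmd4, a ubiquitin receptor, had 5319 counts in dKO and 3551 in WT, a ratio of 1.497 (1.43 to 1.56). Psmd14, the deubiquitinase of the lid, had 1761 counts in dKO and 1312 in WT, a ratio of 1.34 (1.25 to 1.44), while its partner Psmd7 had a ratio of 1.20 (1.13 to 1.27). The large scaffold subunits Psmd1 and Psmd2, which hold the base of the cap, had ratios of 1.15 (1.09 to 1.20) and 1.20 (1.16 to 1.25). The remaining lid subunits lay between Psmd13 at 1.14 (1.07 to 1.22) and Psmd12 at 1.37 (1.30 to 1.46), with Psmd3 at 1.19, Psmd8 at 1.29 and Psmd6 at 1.33. Under library totals Psmd1 and Psmd13 were each at −0.06 on the log2 scale.

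The activators, which can open the core in place of the cap, had the highest group median at 0.49, and all 4 were above 0 under TMM, by library totals (median 0.24) and after removal of the trend (median 0.26). Psme3, which encodes the nuclear activator PA28 gamma (chromosome 11, 101316213 to 101323537), had 4800 counts in dKO and 2708 in WT, a ratio of 1.77 (1.69 to 1.86). Its log2 ratio of 0.82 was 0.57 by library totals and 0.60 after removal of the trend. Psme1 and Psme2 encode the interferon-inducible PA28 alpha and beta, which assemble into 1 ring. Psme1 had 3225 counts in dKO and 2188 in WT, a ratio of 1.47 (1.40 to 1.56), and Psme2 had 2414 in dKO and 1780 in WT, a ratio of 1.36 (1.27 to 1.44). The count of Psme1 per count of Psme2 was 1.34 in dKO and 1.23 in WT, 1.09 times as high in dKO (1.0006 to 1.18). Psme2b, a near copy of Psme2, held 8 counts in dKO and 23 in WT, and how reads common to both were counted is not stated. Psme4, which encodes the PA200 activator, had 5364 counts in dKO and 4189 in WT, a ratio of 1.28 (1.23 to 1.33). Pomp, which helps the beta subunits assemble and mature, had 1793 counts in dKO and 1466 in WT, a ratio of 1.22 (1.14 to 1.31).

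By the 1.5-fold rule, 3 of the 39 genes were higher in dKO, namely Psmd11, Psme3 and Psmb4, and 0 were lower. The background was 8.98% of all measured genes higher and 13.1% lower by that rule. A count of 3 in 39 higher genes is near the background, so large upward differences did not mark out the set. The direction of the small differences is a separate result, and it depended on the setting. Of the 39 genes, 38 lay above 0 under TMM. The number was 27 when sizes were left unscaled and 26 once the trend was taken out.

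Promoter sequences are shown for the 3 genes with the largest ratios and for the 3 immunoproteasome genes, to let their start regions be compared. RefSeq promoters on GRCm38.p6 were matched for 33 of the 39 genes (36 entries), and the 250 bases before the annotated start were searched on both strands for 8 motifs. These were the ETS motif CCGGAAG, the GC box GGGCGG, the CCAAT box CCAAT, the antioxidant response element TGACNNNGC, the interferon-stimulated response element, the gamma-activated site TTCNNNGAA, the palindrome of nuclear respiratory factor 1 and the cAMP response element. The gamma-activated site is its own reverse complement, so each match is found on both strands. The far end of the Psmb9 window runs into the start of Tap1. Capitals mark every match to any of the 8 motifs, and each line runs 5′ to 3′ on the gene's strand and ends at the base before the start. The windows are chr11:80428365-80428614 (plus strand) for Psmd11, chr11:101315963-101316212 (plus) for Psme3, chr3:94886959-94887208 (minus) for Psmb4, chr17:34197945-34198194 (plus) for Psmb8, chr17:34187331-34187580 (minus) for Psmb9 and chr8:105938393-105938642 (minus) for Psmb10.
Psmd11: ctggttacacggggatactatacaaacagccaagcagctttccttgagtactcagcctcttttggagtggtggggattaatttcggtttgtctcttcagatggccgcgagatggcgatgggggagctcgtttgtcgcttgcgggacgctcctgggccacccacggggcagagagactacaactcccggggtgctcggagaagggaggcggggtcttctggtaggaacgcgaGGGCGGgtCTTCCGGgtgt
Psme3: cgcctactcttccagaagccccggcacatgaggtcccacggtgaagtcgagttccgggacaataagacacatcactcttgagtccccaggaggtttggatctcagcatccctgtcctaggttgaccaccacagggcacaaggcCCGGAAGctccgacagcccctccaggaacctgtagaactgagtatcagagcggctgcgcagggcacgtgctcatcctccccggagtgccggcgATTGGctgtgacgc
Psmb4: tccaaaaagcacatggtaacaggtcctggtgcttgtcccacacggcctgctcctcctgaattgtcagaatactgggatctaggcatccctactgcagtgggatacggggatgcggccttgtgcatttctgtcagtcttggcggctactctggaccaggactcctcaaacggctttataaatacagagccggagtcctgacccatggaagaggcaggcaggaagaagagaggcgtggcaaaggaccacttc
Psmb8: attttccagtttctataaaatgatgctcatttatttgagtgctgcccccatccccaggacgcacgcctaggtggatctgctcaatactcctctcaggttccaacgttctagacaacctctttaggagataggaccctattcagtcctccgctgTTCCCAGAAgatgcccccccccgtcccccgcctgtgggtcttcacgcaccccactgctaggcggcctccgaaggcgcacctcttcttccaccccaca
Psmb9: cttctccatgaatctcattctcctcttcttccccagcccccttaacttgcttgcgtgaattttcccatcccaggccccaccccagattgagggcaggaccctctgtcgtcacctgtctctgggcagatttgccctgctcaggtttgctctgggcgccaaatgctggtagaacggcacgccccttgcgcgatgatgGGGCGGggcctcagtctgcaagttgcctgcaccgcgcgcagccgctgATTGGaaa
Psmb10: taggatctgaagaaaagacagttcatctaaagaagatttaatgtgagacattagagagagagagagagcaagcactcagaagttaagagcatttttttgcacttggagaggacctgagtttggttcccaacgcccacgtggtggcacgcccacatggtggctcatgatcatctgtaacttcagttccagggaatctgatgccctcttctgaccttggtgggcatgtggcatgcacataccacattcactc

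Among these 6 promoters, those of Psmd11 and Psme3 held the ETS motif, and that of Psmb8 held the gamma-activated site, an element through which interferon gamma acts. Those of Psmb4 and Psmb10 held none of the 8 motifs in this window. Over all 36 member promoters, the ETS motif was present in 13 (36.1%), beside 6.91% of all 32851 promoters in the table. The GC box was present in 20 (55.6%, beside 32.7% of all), the nuclear respiratory factor palindrome in 6 (16.7%, beside 3.74%) and the CCAAT box in 12 (33.3%, beside 33.8%). The interferon-stimulated element was present in 2 (5.56%, beside 2.98%), the gamma-activated site in 1 (2.78%, beside 7.02%) and the cAMP response element in 0 (beside 1.55%). The median log2 ratio was 0.37 in genes with the ETS motif and 0.30 in the other genes with an entry. It was 0.40 with the GC box and 0.20 without, and 0.24 with the CCAAT box and 0.40 without. It was 0.37 with the nuclear respiratory factor palindrome and 0.35 without, and 0.39 with the interferon-stimulated element and 0.35 without. The gamma-activated site, in 1 gene, gave 0.50 against 0.33 without. No trend on abundance and length was removed for these medians. The motif hits are matches of letters and not measured binding.

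The antioxidant response element is shown for the genes that hold it, since it is the site through which Nfe2l1 and Nfe2l2 act on proteasome genes. It was present in 4 of the 36 promoters (11.1%), beside 10.2% of all promoters. The lines give the match in capitals with up to 10 bases on each side, on GRCm38.p6: chr14:54618024-54618052 (minus strand) for Psmb5, chr11:70525338-70525356 (plus) for Psmb6, chr14:45329587-45329615 (plus) for Psmc6 and chr11:107479278-107479299 (plus) for Psmd12.
Psmb5: cgtgaagttgTGACGTCGCggcgttgcca
Psmb6: ctaaagagagTGACGGAGC
Psmc6: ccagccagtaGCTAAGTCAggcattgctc
Psmd12: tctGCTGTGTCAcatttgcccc

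The ratios of these 4 genes ran from 1.12 for Psmb5 to 1.47 for Psmc6, with a median log2 ratio of 0.46, beside 0.32 for the genes with a promoter entry and no match.

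Per length, the order of the genes was much the same in both libraries. Of the 39 genes, 31 kept their rank within 3 places. Levels ran from 7.13 CPM per kilobase (Psmb9) to 149 (Psmb4) in dKO, and from 6.23 (Psmb9) to 90.7 (Psmb4) in WT. The median over the genes was 56.8 CPM per kilobase in dKO and 41.9 in WT. The constitutive beta ring had the highest group median at 81.9 in dKO and 68.4 in WT, and the immunoproteasome the lowest at 14.4 in both dKO and WT. The alpha ring stood at 55.2 in dKO and 43.3 in WT, the ATPases at 59.3 in dKO and 41.0 in WT, and the non-ATPase subunits at 42.3 in dKO and 29.2 in WT. Psmd11 and Psme3 were among the 8 genes outside that range, at ranks 22 and 24 in dKO and 29 and 32 in WT.

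**Figure D4:**
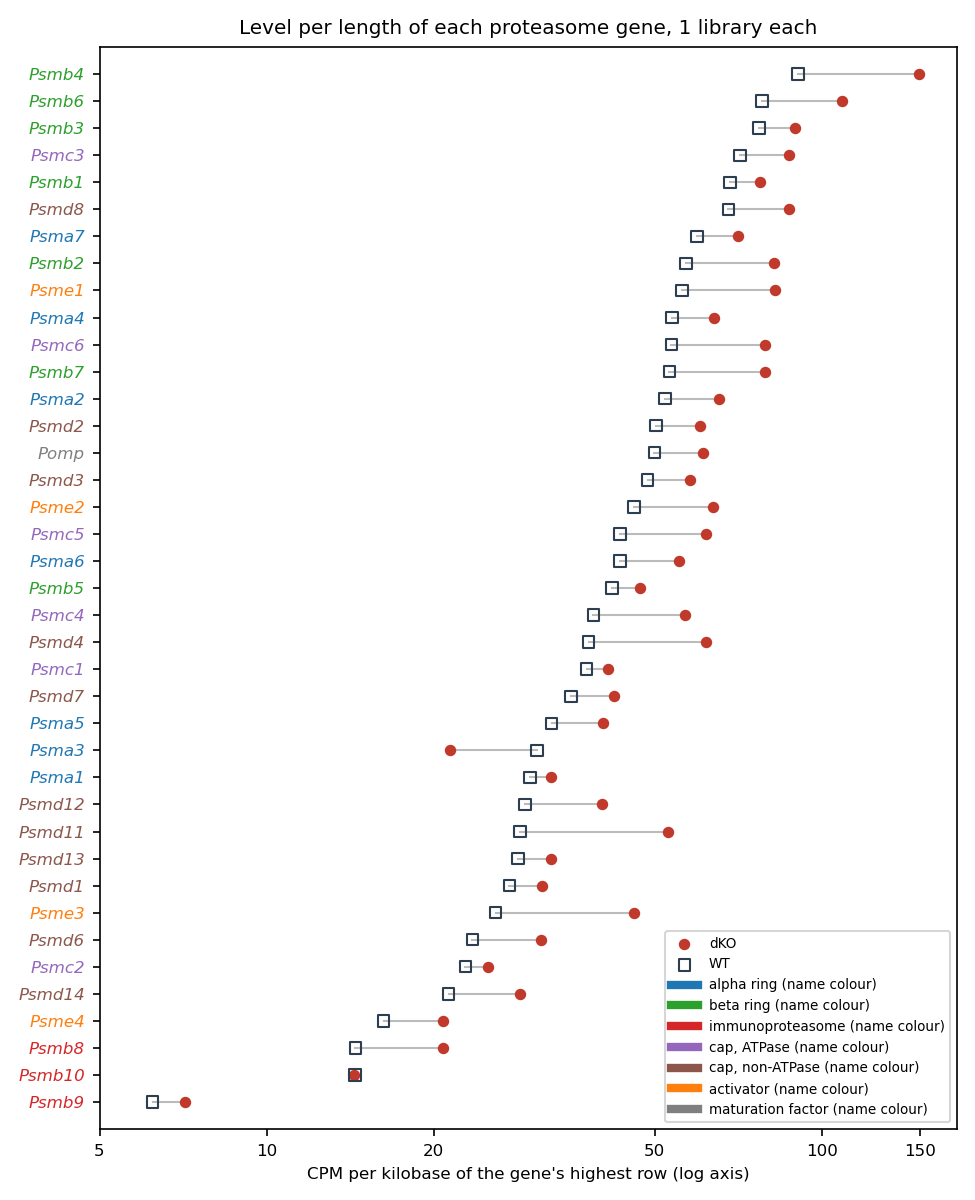
Level per length of each of the 39 genes in the dKO library (filled circles) and the WT library (open squares), in CPM per kilobase of the gene's highest row on a log axis. Genes are ordered by their WT level and names are coloured by role. The 3 immunoproteasome genes lie at the low end, Psmb4 at the high end (149 in dKO, 90.7 in WT), and Psma3 lies lower in dKO (21.4) than in WT (30.7), where its highest row holds a larger share of its reads.

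Psma3 and Psmd4 show how the division of reads over transcript rows bears on these levels. The table gave Psma3 3 rows that differ in length by at most 29 bases. The row of 2374 bases held 2033 counts in dKO and 2914 in WT, and the row of 2398 bases held 858 in dKO and 6 in WT. The share of Psma3 reads on the row of 2398 bases was 23.5% in dKO and 0.183% in WT. The sum over rows was 3649 counts in dKO and 3276 in WT, a ratio of 1.11 (1.06 to 1.17), whereas the highest row alone gave a log2 ratio of −0.51. Psmd4 had 2 rows, and the row of 1335 bases held 62.2% of its reads in dKO and 57.2% in WT. How reads were assigned to rows is not stated, so the split is reported as deposited and not as a change of isoform. The other 4 genes with several rows, Psma6, Psma7, Psmd2 and Psme2, had over 90% of their reads on 1 row in both libraries.

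Under TMM, lists of genes that work with the proteasome differed in how far they shared the small upward difference of the subunits. The further subunits shared it. Sem1 had 2725 counts in dKO and 1836 in WT (ratio 1.48, 1.40 to 1.58). The ubiquitin receptor Adrm1 had 3169 in dKO and 2195 in WT (1.44, 1.37 to 1.52). Psma8 and Psmb11, subunits of the testis and thymus, had 0 counts in both libraries. Of 9 measured assembly and regulatory factors, 4 were above and 5 below 0, with a median of −0.05 and 0 that were 2-fold apart by the log2 rule. With the trend on abundance and length removed their median was −0.02, beside −0.01 for the core, 0.03 for the cap and 0.08 for all 39 genes. Under library totals 2 of the 9 factors were above and 7 below 0, with a median of −0.30, and 1, Psmd5, was 2-fold lower at −1.154. The lowest was Psmd5, a chaperone of cap assembly, with 245 counts in dKO and 502 in WT, a ratio of 0.488 (0.417 to 0.570) and a log2 ratio of −0.93 after the pseudocount. Ublcp1, a phosphatase of the proteasome, had 401 counts in dKO and 679 in WT, a ratio of 0.590 (0.521 to 0.669). Psmf1, which encodes the inhibitor PI31, had 627 counts in dKO and 814 in WT, a ratio of 0.770 (0.693 to 0.856). Named after its value was seen, the core chaperone Psmg1 had a ratio of 1.43 (1.28 to 1.60).

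The list for Nrf control of proteasome genes held 5 Nrf and Maf factors (Nfe2l1, Nfe2l2, Mafg, Maff and Mafk), all above 0, and the Nfe2l1-processing enzymes Ddi2 and Ngly1, both below 0. None of the 7 was 2-fold apart. Their median was 0.28, and 0.03 under library totals, where Nfe2l1 was also below 0. With the trend on abundance and length removed the median was 0.08. Ngly1, a glycanase named after its value was seen, had a ratio of 0.964 whose interval (0.879 to 1.06) includes 1. Maff, a small Maf partner of Nrf factors, had 28691 counts in dKO and 15546 in WT, a ratio of 1.84 (1.81 to 1.88). Ddi2, the protease that activates Nfe2l1, had 1067 counts in dKO and 1568 in WT, a ratio of 0.680 (0.629 to 0.736). Named after their values were seen, Nfe2l1 and Nfe2l2 had ratios of 1.14 (1.10 to 1.17) and 1.42 (1.39 to 1.46).

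Among 14 shuttle, deubiquitinase and Vcp complex genes, 8 were above and 6 below 0, with 0 that were 2-fold apart. Their median of 0.11 became −0.13 under library totals. Zfand5, a ubiquitin-binding stimulator of the proteasome, had 17047 counts in dKO and 9262 in WT, a ratio of 1.84 (1.79 to 1.89). Named after its value was seen, Usp14, a deubiquitinase of the cap, had 1080 counts in dKO and 1515 in WT, a ratio of 0.713 (0.659 to 0.771). Ddi2, described with the Nrf list, is also on this list and is among the 6 below 0. Members of this list therefore differed in both directions.

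Of 16 interferon signalling and antigen processing genes, 3 were 2-fold higher in dKO and 0 were 2-fold lower. The background was 1.92% higher and 4.3% lower. The 3 were Nlrc5, the transactivator of MHC class I genes (356 counts in dKO, 123 in WT; ratio 2.89, 2.35 to 3.58), the peptide transporter gene Tap1 (2954 in dKO, 1382 in WT; 2.14, 2.004 to 2.28) and Irf8 (5377 in dKO, 2667 in WT; 2.02, 1.92 to 2.11). Under library totals 1 of the 3, Nlrc5, stayed past 2-fold. The list median was 0.56, and 0.31 under library totals. With the trend on abundance and length removed it was 0.10, with 9 genes above and 7 below 0. Of the 3 genes, only Nlrc5 was then past 2-fold, at 1.69. Named after their values were seen, Irf1, an interferon-induced factor, and Ifngr1, a receptor chain for interferon gamma, were lower, with ratios of 0.692 and 0.644.

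Tap1 lies beside Psmb9 on chromosome 17, with 225 bases between the annotated genes, in the opposite orientation. The count of Tap1 per count of Psmb9 was 12.8 in dKO and 6.88 in WT, 1.87 times as high in dKO (1.52 to 2.29). These neighbouring genes therefore had unequal ratios in these libraries, by more than counting error. Psmb8, on the other side of Tap1, had 4.41 counts per Psmb9 count in dKO and 3.52 in WT, 1.25 times as high in dKO (1.01 to 1.56).

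**Figure D5:**
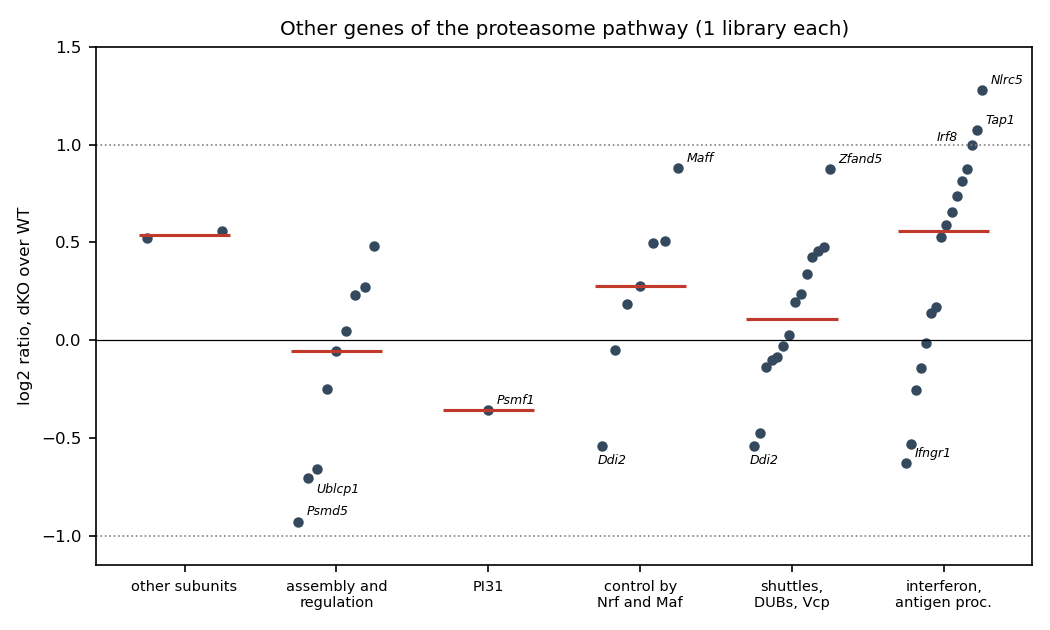
Log2 ratio of dKO over WT for the measured genes of 6 pathway lists, with list medians as red lines and dotted lines at 2-fold, for 1 library each under TMM scaling. Assembly and regulatory factors lie on both sides of 0 with Psmd5 lowest at −0.93, and 3 interferon and antigen processing genes reach the upper 2-fold line. Under library totals the median of the shuttle list is below 0 and Psmd5 lies past the lower 2-fold line.

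Esr2, the labelled knockout, had 45 counts in dKO (95% Poisson interval 32.8 to 60.2) and 71 in WT (55.5 to 89.6). Which part of the gene was deleted is not stated, so these counts check nothing about the genotype.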

How the data were processed

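RNA-seq counts were compared between 1 dKO and 1 WT library of sorted mouse MuSCs. The deposited table holds raw read counts, 1 row per transcript with its length and Entrez ID (file headers). The submitters' processing notes name TopHat2 2.0.9, bedtools and edgeR with build mm10. Neither the counting rule nor the annotation nor the use of strand is stated there. Of the 39 genes, 11 overlap another annotated gene, 4 of them a protein-coding one, and reads of such neighbours cannot be told apart.

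The 36780 rows were summed to 24532 gene IDs, of which 24462 matched a RefSeq symbol on GRCm38.p6. Library sizes were scaled with edgeR 4.0.16 in R 4.3.3 (TMM), with factors of 0.916 for dKO and 1.09 for WT. The log2 ratio compared CPM + 1 in dKO with CPM + 1 in WT. Folds had no pseudocount and an exact conditional binomial 95% interval, or an exact conditional odds ratio interval for ratios of ratios (SciPy 1.17.1). Amplified reads are not independent molecules, so intervals cover counting error only. No test between groups was possible, and genes were counted by a rule of size (2-fold, or 1.5-fold where stated, with 10 counts or more in the library where the gene is higher). Level per length used the row with the highest mean share of library reads. Of 36 promoter entries, 33 had their bases after the start in a GENCODE M21 transcript of the same gene, which checks their orientation.

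The members, lists and rules were chosen with earlier results of these data known. All 39 members are named, and of each pathway list the genes 2-fold apart or otherwise the 2 with the largest log2 ratio in size, given 50 counts or more in either library. A further list and some genes are not reported here. The symbol Paaf1 of the assembly list was not matched. Alternatives were median-ratio scaling (DESeq2 1.42.0), library totals, pseudocounts of 0.1 and 5, the highest row, genes with 1 row, count floors of 1 and 100, 1.5-fold and 4-fold rules, and removal of a cubic trend on abundance and length. On simulated counts for dKO against WT over 14287 genes, 77% of 100 genes changed 2.5-fold and 95% of 100 changed 4-fold were recovered, with 0 of 14087 unchanged genes called. The simulated counts were Poisson draws from a shared profile, without spread between animals, shifts in cell types or an abundance trend. They check the calculation only and give no rate of false calls for the real libraries.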

Additional observations from a re-analysis of the deposited data

How the results depend on the processing

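Of the 39 genes, 0 were 2-fold apart under every alternative run except the 1.5-fold rule, which gave 3. With median-ratio scaling, pseudocounts of 0.1 and 5, the highest row and genes with 1 row only, the medians of all 39 genes, core, immunoproteasome, cap and activators stayed within the counting interval of the gene nearest each median, except the activator median at a pseudocount of 5 (0.46). Under library totals the medians were 0.0698 for all 39 genes, 0.0389 for the core, −0.05 for the immunoproteasome, 0.11 for the cap and 0.24 for the activators. With the trend on abundance and length removed they were 0.0825 for all 39 genes, −0.00769 for the core, 0.18 for the immunoproteasome, 0.0270 for the cap and 0.26 for the activators. This removal takes out any rise that abundant genes share. The count of genes above 0 (38 by the main rule) was 27 under library totals, 26 after trend removal, 37 by the highest row, 39 with median-ratio scaling, 38 with either pseudocount and 32 of 33 among genes with 1 row; these counts were chosen after seeing the data. Over all genes, 926 were 2-fold apart, against 2351 with a pseudocount of 0.1, 341 with a pseudocount of 5, 571 among genes with 1 row, 3291 by the 1.5-fold rule and 81 by the 4-fold rule. Lower genes made up 69.1% of those 2-fold apart, and 88.9% under library totals, 58.1% with the trend removed and 54.8% with a pseudocount of 5. The cause of these shifts was not tested. No paired analysis was possible because each group has 1 library and no test was run. Depth limits Psmb9 most, at 230 counts in dKO and 201 in WT, where a ratio between 0.943 and 1.39 cannot be told from 1.14.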
